A study of Brassica napus with 12 samples.

Results

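Silique-only H3K4me3 regions without H3K27me3 are stretches of the *Brassica napus* genome where H3K4me3 peaks were called in both silique libraries and in no flower bud or seedling library, and where no H3K27me3 peak was called in any tissue. Joining the peaks of the 6 H3K4me3 lists wherever they shared at least 1 bp gave 51928 regions, and 448 of them met these conditions (0.863%). The regions were chosen by the authors' peak calls in all 12 lists, so strength, width and tissue pattern of the 448 regions are given as description with no test. The tissues came from HZ62, an oilseed rape hybrid labelled wild type, grown under 16 h of light at 22 °C and 8 h of darkness at 18 °C. Siliques measured 3 to 5 cm, flower buds were below 2 mm and seedlings were 2 weeks old, and each mark had 2 libraries per tissue. The labels spell the bud tissue "flower bug", and the titles call the seedling libraries leaf. Whole organs were used, and the labels do not state whether paired libraries came from separate plants, so the spread between libraries may be technical.

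H3K4me3 is a methyl mark that trithorax-type enzymes place on nucleosomes around the starts of transcribed genes, and it usually accompanies transcription. H3K27me3 is placed by Polycomb repressive complex 2, which keeps many developmental genes silent in plants until a tissue or stage releases them. A gene with H3K4me3 in one tissue may carry H3K27me3 in other tissues, or may lack it everywhere. The silique is the fruit of the cabbage family and holds carpel walls, seed coats, endosperm and embryos. In such a mixed organ, strong marking of few cells and weak marking of many cannot be told apart. The peak lists identify the sequences of their assembly without giving its name as a build, and no gene annotation or genome sequence of that assembly was used. Regions are therefore named by the number of their sequence and by 1-based positions, without gene names or bases, and tissue identity was not checked against marker genes.

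H3K4me3 libraries held 14339594 and 11209471 fragments in silique, against 8609548 to 10914885 in the other tissues, so the silique libraries were the deepest of this mark. The H3K27me3 libraries held 7441109 and 2654588 fragments in silique, 11513204 and 10929797 in flower bud, and 3647059 and 3479885 in seedling. A region without an H3K27me3 peak is one where none was called at these depths. The fragment size was 332 bp in silique H3K4me3 replicate 1 and 248 bp in replicate 2. The seedling libraries carry lower library numbers, in a range apart from that of all others, so a seedling difference and a difference of library series cannot be separated.

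Peaks in the 448 regions were weak. Fold enrichment, the authors' value for how far the pileup at a summit exceeded the control there, had a median of 5.85 in silique replicate 1 and 6.57 in replicate 2. The interquartile range lay between 4.67 and 7.67 in replicate 1 and between 5.35 and 8.87 in replicate 2. For regions with H3K4me3 in all 6 libraries the medians were 16.0 and 18.9 in the same libraries. Within the list of replicate 1, 213 of the 448 regions stood in the weakest 10% of peaks and 11 above the list's median, and within that of replicate 2 the counts were 225 and 9. Above the median of both lists stood 5 regions, and 346 stood in the weakest 25% of both. Flower bud-only and seedling-only regions without H3K27me3 also stood low in their own lists, with median percentiles of 8.42 and 8.63 in the flower bud lists and 12.2 and 14.1 in the seedling lists, against 10.6 and 9.93 for the 448 regions in the silique lists.

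**Figure D1:**
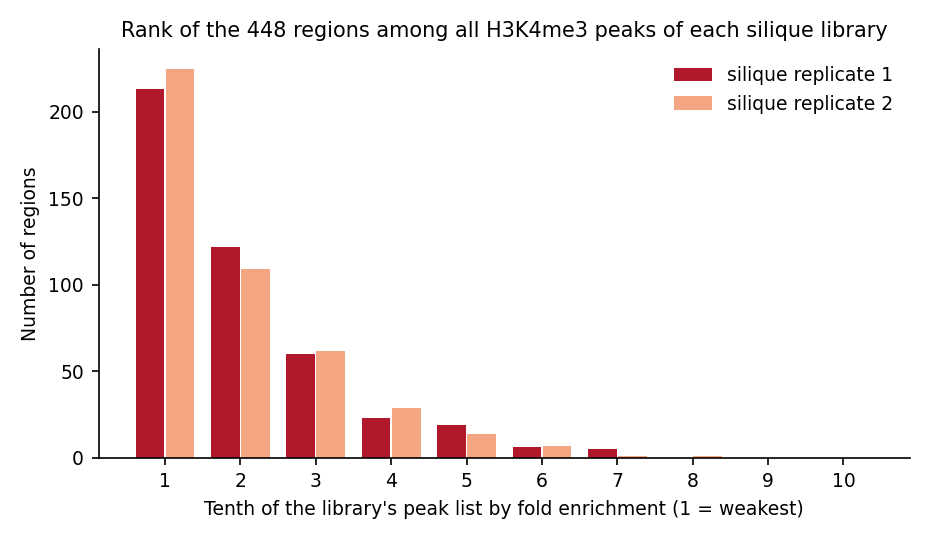
Number of the 448 silique-only H3K4me3 regions without H3K27me3 in each 10% step of the peak list of a silique library, ranked by fold enrichment from the weakest (1) to the strongest (10). The weakest step holds 213 regions in replicate 1 and 225 in replicate 2, and the 2 strongest steps hold none.

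The silique libraries placed most of these peaks close together. In 447 of the 448 regions each library had a single peak, and the summits of the libraries lay a median of 59 bp apart (interquartile range 21 to 114.5 bp, largest 645 bp). Summits were within 50 bp of each other in 201 regions and within 200 bp in 406. The rule required both peaks in the same merged region, which limits this distance. Peak numbers and summit distances were not counted for other H3K4me3 regions, so whether this closeness is particular to the 448 regions is not known. Across the 448 regions fold enrichment in the silique libraries had a Spearman rho of 0.767, which is a description, since the libraries share the control and both had to pass the same threshold. The replicate 1 peak was the wider one in 382 regions. Over the whole lists the median peak was also wider in replicate 1, 865 bp against 701 bp. Replicate 1 had both the longer fragments and the greater depth, and the cause of the difference in width was not tested. The regions were narrow, with a median width of 587 bp (332 to 2035 bp), against 862 bp for all merged regions. Flower bud-only and seedling-only regions without H3K27me3 were narrow too, with medians of 580.5 and 498 bp. Such regions join the peaks of a single tissue, while other merged regions can join those of several. Single peaks were narrower as well. Their median width in silique replicates 1 and 2 was 564.5 and 456.5 bp in the 448 regions, against 895 and 731 bp for regions in all 6 libraries. The cause of the difference was not tested. Of the 448 regions 66 reached 1 kb, and the upper quartile of width was 804 bp, against 1119 bp for all merged regions. Wider regions tended to have the higher fold (Spearman rho of 0.484 between width and the lower fold of the silique libraries).

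**Figure D2:**
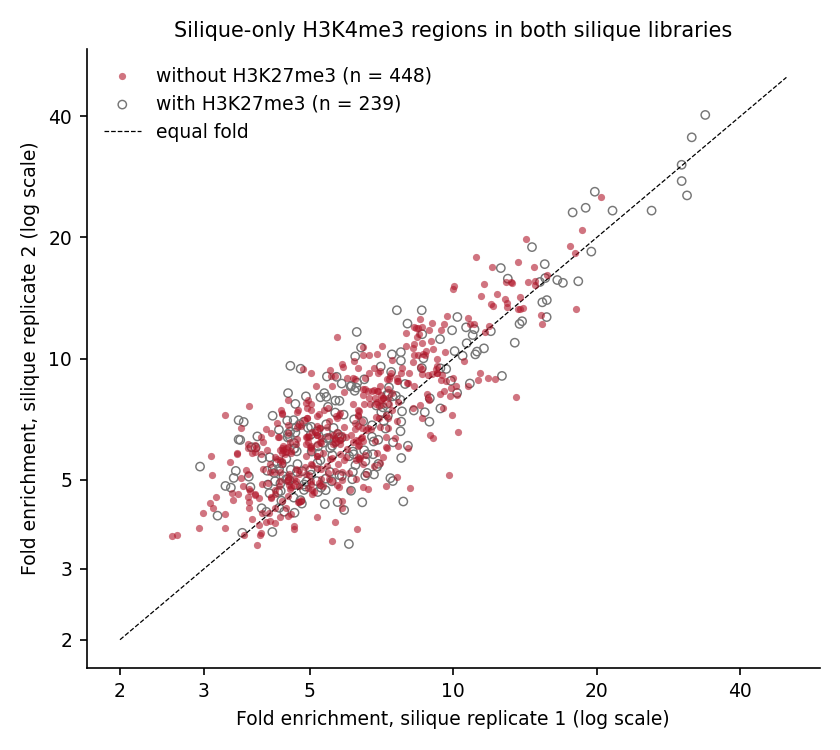
Fold enrichment in silique replicate 1 (horizontal) and replicate 2 (vertical) on log scales for silique-only H3K4me3 regions, with 448 regions without H3K27me3 filled and 239 with H3K27me3 open. Filled points reach 20.4 and 25.2 at most, and the open points reach 33.8 and 40.3.

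The strongest region lay on sequence 1 between 14033484 and 14034922 and was 1439 bp wide. Its fold was 20.4 in replicate 1 and 25.2 in replicate 2, its pileup 250 and 177 fragments, and its summits lay 77 bp apart. It stood at the 68.2 and 71.1 percentiles of the silique lists. This place was sparse in H3K4me3, with 2 other regions within 50 kb. The next of these, 9300 bp away, was called in both flower bud libraries alone, and a H3K27me3 region of 522 bp, also called in the flower bud libraries alone, lay 1004 bp from the silique-only region on its other side.

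The next 3 regions had folds above 17 in both silique libraries. On sequence 8 between 23079451 and 23080565 the folds were 18.7 and 20.9 and the pileups 124 and 89 fragments, with summits 14 bp apart. This was a dense place, with 20 other H3K4me3 regions within 50 kb and one called in all 6 libraries 1426 bp away. On sequence 14 between 2384621 and 2386008 the folds were 18.0 and 18.3 and the pileups 117 and 77 fragments. That region stood alone, with no other H3K4me3 region within 50 kb, and its nearest one, 52882 bp away, was silique-only as well. On sequence 5 between 27749919 and 27750751 the folds were 17.6 and 19.1, next to a region 1802 bp away that was called in all 6 libraries with folds of 44.7 and 48.3 in silique, 40.8 and 37.9 in flower bud, and 32.1 and 31.8 in seedling.

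The other 6 of the 10 regions with the highest lower fold reached 14.2 to 15.7 in the weaker of the silique libraries. They lay on sequence 3 between 4631362 and 4632566, on sequence 14 between 64649422 and 64650307, on sequence 16 between 23070388 and 23071181, and at 3 places of sequence 18, between 24843395 and 24844770, between 27669897 and 27671617 and between 28698487 and 28700057. The region of sequence 16 differed most between the libraries, with 14.2 in replicate 1 and 19.8 in replicate 2. The region from 27669897 was the widest of the 10 at 1721 bp, and a region called in all 6 libraries followed after 654 bp. Of these 10 regions, 5 had an H3K27me3 region within 5 kb, against 31.5% of all 448, and 7 had a region called in all 6 libraries as their nearest H3K4me3 neighbour, against 74.3% of the 448. The nearest H3K27me3 region was called in flower bud libraries alone at 4 of the 10, at 80 of the 448 (17.9%) and at 17.3% of all H3K4me3 regions without H3K27me3. These counts over 10 regions describe them and show no trait of strong regions.

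The widest regions were not the strongest. The widest of all covered 2035 bp on sequence 10 between 18459616 and 18461650, with folds of 9.87 and 8.05. Only 289 bp further along, between 18461940 and 18462644, lay a region called in both flower bud libraries, with folds of 4.63 and 4.18, and in both seedling libraries, with 7.27 and 8.39, and in neither silique library. The next widest covered 1937 bp on sequence 18 between 29252709 and 29254645, with folds of 10.1 and 8.55. The next, 1856 bp wide, lay on sequence 14 between 50266743 and 50268598. It had folds of 18.1 and 13.3, and its nearest H3K4me3 region lay 24073 bp away.

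Another H3K4me3 region lay within 500 bp of 14 of the 448 regions (3.13%), against 2.71% for all merged regions. For flower bud-only and seedling-only regions without H3K27me3 the shares were 6.40% and 5.18%. For 5 of the 14 the neighbour was called in flower bud or seedling or both, and in no silique library. The other 9 neighbours were called in both silique libraries, 7 of them in all 6 libraries. These shares were not counted for all merged regions with so close a neighbour, so the 5 places are described only. Besides the place on sequence 10, a silique-only region on sequence 16 between 48585165 and 48585858, with folds of 4.75 and 5.29, lay 151 bp from a seedling-only region of 2371 bp with folds of 11.1 and 10.9 in seedling. On sequence 18 a silique-only region between 39908090 and 39909214, with folds of 5.50 and 6.99, lay 190 bp from a flower bud-only region with folds of 6.18 and 6.06 in flower bud. On sequence 3 a silique-only region between 23029528 and 23029918, with 4.16 and 4.50, lay 274 bp from a seedling-only region with 11.6 and 11.2 in seedling. On sequence 6 a stronger silique-only region, between 19876231 and 19877667 with 12.9 and 13.4, lay 411 bp from a region with 10.4 and 6.91 in seedling and 4.80 in one flower bud library. At these 5 places H3K4me3 was thus called in another tissue 151 to 411 bp away, outside the silique-only region itself. Over all 448 regions the nearest H3K4me3 region had no silique peak in 63 (14.1%), against 14.2% for all merged regions.

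How far the absence of a peak in the other tissues rests on depth was examined by scaling the silique pileups to the fragments of each other library. Scaling was by fragment number alone, and fragment size also differed. The median region would have had a pileup of 31.1 fragments from silique replicate 1 and 29.4 from replicate 2 at the depth of flower bud replicate 1, where the median called peak had 94 and the lowest 5% of peaks ended at 31. At the depth of seedling replicate 1 the values were 27.6 and 26.1, against a median of 68 and a lowest 5% of 24, and at that of seedling replicate 2 they were 35.0 and 33.1, against a median of 86 and a lowest 5% of 28. In both silique libraries and against all 4 other lists, 39.1% of the 448 regions reached the pileup below which the lowest 5% of peaks of those lists lay, a limit chosen after the data were seen. The remaining regions fell below that limit in at least 1 of these comparisons. Peaks were also called below that limit, down to pileups of 16 and 18 in the flower bud lists and 13 and 15 in the seedling lists. The lowest scaled pileup of the 448 regions was 15.6 to 17.1 at the flower bud depths and 13.8 to 18.3 at the seedling depths. A region below the limit of the lowest 5% could therefore still have been called. All 10 strongest regions kept to that limit throughout. Of the 448 regions, only that of sequence 1 from 14033484 reached the median pileup of each of these lists.

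**Figure D3:**
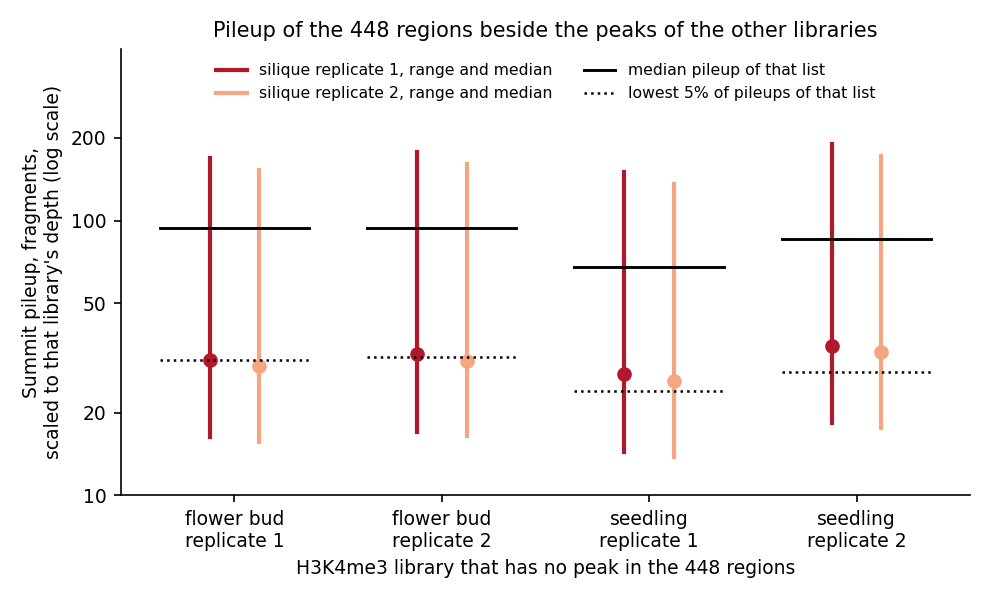
Summit pileup of the 448 regions in silique replicates 1 and 2, scaled to the fragments of each flower bud and seedling H3K4me3 library (log scale), with the dot at the median and the bar from the lowest to the highest region. Solid black lines give the median pileup of that library's own peaks (68 to 94) and dotted lines the pileup that ends its lowest 5% (24 to 32), near which the medians of the regions lie.

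Regions close to the limits of the rule show how it works. Just inside it, the lowest −log10 q in the weaker silique library was 5.70 on sequence 13 between 10361781 and 10362469, where replicate 2 had a fold of 3.52 and replicate 1 of 5.58 and the summits lay 496 bp apart. The next were a region on sequence 18 between 51337491 and 51338119, with 6.05, and one on sequence 3 between 29078869 and 29079507, with 6.35. Just outside, 144 regions had a peak in silique replicate 1 alone and 155 in replicate 2 alone, with no other H3K4me3 or H3K27me3 peak. Their median folds were 4.64 and 5.55. The strongest of these, on sequence 9 between 4852820 and 4853102, had a fold of 12.7 in replicate 2 and was 283 bp long, which is shorter than the fragments of replicate 1. On the H3K27me3 side, the region closest to that mark without touching it lay on sequence 15 between 2067045 and 2067532, 46 bp from a region called in 1 seedling library.

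Silique-only H3K4me3 regions overlapped H3K27me3 more often than H3K4me3 regions in general. By the peak rule 687 regions were silique-only (1.32% of the merged regions), and 239 of these (34.8%) overlapped a peak of at least 1 H3K27me3 library, against 8.11% of all merged regions and 3.03% of regions in all 6 libraries. The share without H3K27me3 was thus 65.2%, against 91.9% of all merged regions. Overlap was also common at flower bud-only regions (31.4%) and at seedling-only regions (27.4%). All these shares use the same H3K27me3 lists and no test was made of them. Of the 687 regions, 22.3% and 11.9% had a peak in the silique H3K27me3 libraries, 31.4% and 32.9% in those of flower bud, and 26.5% and 23.6% in those of seedling. Over all merged regions the shares were 5.70% and 3.04% for silique, 6.78% and 7.09% for flower bud, and 4.22% and 3.59% for seedling, and silique was below flower bud there too. Of the 239 regions with H3K27me3, 86 had no silique H3K27me3 peak (35.98%), against 29.6% of all merged regions with H3K27me3. In all 6 libraries 77 were overlapped (32.2%), against 27.2%, and in 1 library only 23 (9.62%), against 13.4%.

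**Figure D4:**
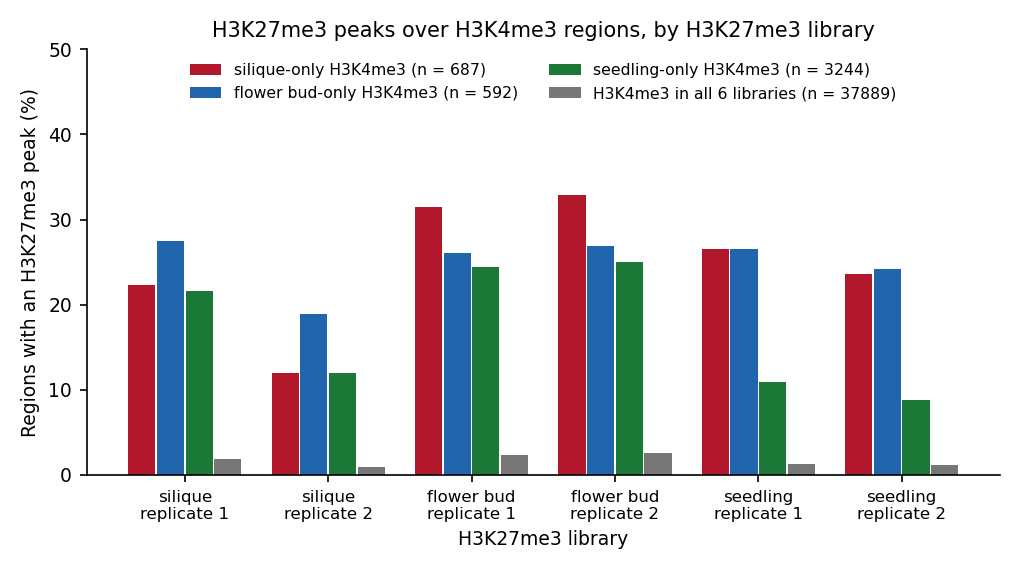
Percentage of H3K4me3 regions overlapped by a peak of each H3K27me3 library, for silique-only, flower bud-only and seedling-only regions and for regions with H3K4me3 in all 6 libraries. Silique-only regions range from 11.9% in silique replicate 2 to 32.9% in flower bud replicate 2, and regions in all 6 libraries stay between 0.913% and 2.55%.

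The strongest silique-only H3K4me3 peaks were left out for this overlap. Regions without H3K27me3 and regions with it had similar medians of the lower silique fold, 5.59 and 5.46, but a lower fold of 10 or more was reached by 37 of the 448 (8.26%) and by 37 of the 239 (15.5%). A lower fold of 20 was reached by 1 of the 448 and 7 of the 239. On sequence 6 between 25128359 and 25129798, with H3K4me3 folds of 33.8 and 40.3, the H3K27me3 folds were 17.3 and 11.8 in silique, 36.4 and 54.4 in flower bud, and 42.5 and 39.9 in seedling. On sequence 4 between 19837213 and 19838915, with H3K4me3 folds of 30.1 and 30.3, H3K27me3 was called in both flower bud libraries (8.46 and 7.05) and in 1 seedling library (10.9) and in no silique library. The weakest case among the strong ones was on sequence 9 between 6922836 and 6924289, with H3K4me3 folds of 18.96 and 23.7, which was left out for a single H3K27me3 peak of fold 5.07 in flower bud replicate 2. Folds of different libraries were not compared by a test.

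The 448 regions lay among other H3K4me3 regions much as H3K4me3 regions in general did. The gap to the next H3K4me3 region, counted as the bases between them, had a median of 3556 bp, against 3501 bp for all merged H3K4me3 regions without H3K27me3. It was at most 1 kb in 44 of the 448 (9.82%), against 10.2% of all those regions, and at most 5 kb in 276 (61.6%), against 62.9%. For flower bud-only and seedling-only regions without H3K27me3 the shares within 1 kb were 12.8% and 13.7%. The nearest H3K4me3 region was called in all 6 libraries for 333 of the 448 (74.3%), against 73.9% over all merged regions, and was silique-only for 10 (2.23%), against 1.23%. The median number of other H3K4me3 regions within 50 kb was 8 for the 448 regions and 8 for all merged regions. The most isolated one lay on sequence 17 between 33975304 and 33975929, with folds of 5.70 and 6.56 and no other H3K4me3 region for 54656 bp.

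**Figure D5:**
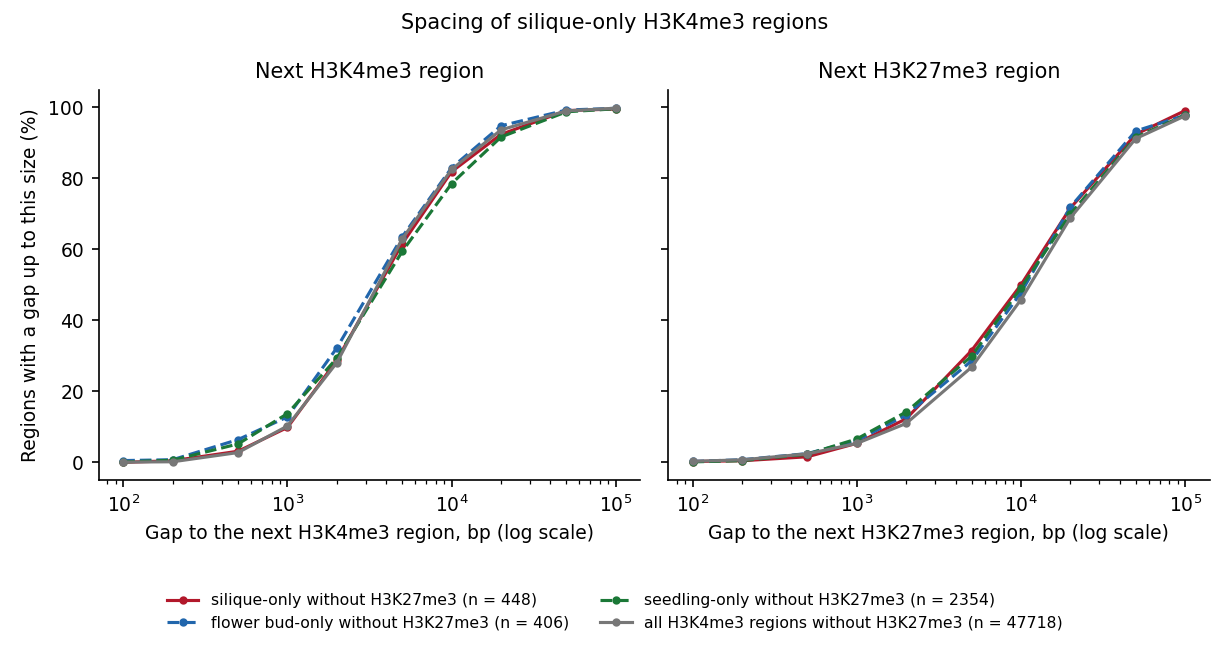
Cumulative percentage of regions by the gap in bp (log scale) to the next H3K4me3 region (left) and to the next H3K27me3 region (right), for silique-only regions without H3K27me3, flower bud-only and seedling-only regions without H3K27me3, and all H3K4me3 regions without H3K27me3. The curves run close together. Within 5 kb of H3K27me3 the values are 31.5% for silique-only, 28.6% for flower bud-only, 29.9% for seedling-only and 26.8% for all regions.

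An H3K27me3 region of at least 1 library lay within 5 kb of 141 of the 448 regions (31.5%), against 26.8% of all H3K4me3 regions without H3K27me3. For flower bud-only and seedling-only regions without H3K27me3 the shares were 28.6% and 29.9%. Within 1 kb the share was 5.36% for the 448 regions and 5.33% for all H3K4me3 regions without H3K27me3. By library, the share of the 448 regions with a peak within 5 kb was 21.0% and 12.1% for silique, 116 and 121 regions (25.9% and 27.01%) for flower bud, and 18.8% and 17.2% for seedling. The share over all H3K4me3 regions without H3K27me3 was subtracted from each, since that share follows depth as well. The remainders were 0.250 and 0.714 percentage points in silique, 2.78 and 3.06 in flower bud, and 2.03 and 2.57 in seedling, so the silique libraries were the lowest. The mean difference of silique from the other tissues was -2.13 percentage points. Exact permutation of the libraries, 2 against 4 and two-sided, returned p = 0.133, the smallest p that the 15 arrangements allow, so this design cannot pass 0.05 (adjusted p = 0.267 over 2 tests, exact permutation). With every H3K27me3 list shortened to the length of the shortest it was -0.959 percentage points, and with peaks up to 20 kb away it turned to 1.57. Against flower bud alone, among the libraries with higher numbers, it was -2.44 percentage points.

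The nearest region with H3K4me3 in all 6 libraries was used to ask whether the surroundings of the 448 regions were also stronger in silique, since the rule did not use these neighbours. There were 437 such neighbours, and each was ranked by fold among the 37889 shared regions of each library. Their median percentile was 54.1 and 51.7 in silique, 52.8 and 52.2 in flower bud, and 48.4 and 46.2 in seedling. Silique and flower bud overlapped, and seedling was the lowest. The mean difference of silique from the other tissues was 3.01 percentiles, which did not pass a two-sided exact permutation test over the 6 libraries (p = 0.400, adjusted p = 0.400, exact). Against flower bud alone it was 0.415 percentiles, for neighbours within 5 kb it was -0.0774, and for those beyond 5 kb it was 4.58. Of the 437 neighbours, 98 (22.4%) ranked higher in both silique libraries than in all 4 others, against 19.4% of all shared regions, and 77 (17.6%) ranked lower in both, against 17.8%.

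All but 2 of the 448 regions lay on the 19 long sequences, of which the first 10 were taken as the A and the other 9 as the C subgenome, by their order and extent. There were 222 regions on A sequences and 224 on C sequences (50.2% on C), against 53.6% on C for all merged H3K4me3 regions, 53.3% for flower bud-only and 56.1% for seedling-only regions without H3K27me3. Per sequence, the regions made up between 0.465% of the merged H3K4me3 regions, on sequence 19 (16 of 3440), and 1.28%, on sequence 5 (28 of 2185). Sequence 3 held the most, with 36 of its 3567 merged regions (1.01%), against 0.863% over all merged regions. Within 1 Mb of the end of a sequence lay 37 of them (8.30%), against 6.54% of all merged regions. The remaining 2 lay on short sequences of the assembly, each without another H3K4me3 region.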

How the data were processed

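The data were 12 peak lists, 1 per library, for H3K4me3 and H3K27me3 in silique, flower bud and seedling (2 libraries each). Per the labels' protocols, about 1 g of tissue fixed in 1% formaldehyde went into each library, and sonication left pieces of 200 to 600 bp. BWA, SAMtools, GATK and MACS2 appear in the submitters' processing notes. Per the file headers, MACS 2.2.7.1 called the peaks of each library separately, from fragments of read pairs and against 1 merged control, with a q threshold of 1e-05 and duplicates reduced to 1 fragment. Pileup is a coverage signal at the summit as deposited by the authors. Pileups were taken as not scaled between libraries, since in silique H3K4me3 replicate 1 had 1.28 times the fragments of replicate 2 and 1.35 times its median pileup. Fold enrichment is the authors' ratio per peak, deposited in the same lists. Each p-value and q-value was deposited as its −log10, per the file headers.

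A library had a merged region if a peak overlapped it by 1 bp, and of several peaks the highest was used. Lists of different libraries were compared by presence, by rank within a list or a shared set, or by pileup scaled to fragments. The regions, the lists and the rules were chosen with earlier results of these data known. By rule the text names the 10 regions with the highest lower fold, the 3 widest, those that keep the pileup medians, groups of 3 within 50 kb, the 3 most isolated, the 3 nearest to H3K27me3 and those next to the thresholds (of several lists of 3, fewer are named). The 5 places beside regions of other tissues, the region left out for a single H3K27me3 peak and the alternatives of pileup at the lowest 5%, of leaving out seedling and of −log10 q of 10 in the silique lists alone were chosen after values were seen. The other settings tried were lists of equal length, coverage of 50% of a region, −log10 q of 10, pileup at the list medians, other H3K27me3 rules, merging over 200 bp and leaving out each library. Silique and the other tissues were compared by two-sided exact permutation over libraries, adjusted by Benjamini-Hochberg. The planned lists of seed and fruit genes were left out, since gene positions on the files' build were not used. Extents of the 19 long sequences followed those of the chromosomes of the Da-Ae assembly (Pearson r = 0.994, n = 19), whose coordinates are not used. The code was tested on simulated lists. Python 3.11.15, numpy 2.4.6, pandas 2.3.3, scipy 1.17.1 and matplotlib 3.10.9 were used.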

Additional observations from a re-analysis of the deposited data

How the results depend on the processing

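The count of 448 regions depended on the rule for weak peaks. It became 727 with every list shortened to equal length (368 of the 448 remained), 39.1% of 448 with the depth-scaled pileup at the lowest 5% of the other lists, 1 with that pileup at their medians, and 1464 with the seedling libraries of both marks left out (also chosen after seeing the data), where the rule no longer asks for their absence. It was 467 with −log10 q of 10 or more (367 of the 448 remained). Leaving out single libraries, where a tissue is judged on the other library alone, gave 448 to 632. The share of silique-only regions without H3K27me3, 65.2%, became 77.7% with lists of equal length and also 77.7% with silique H3K27me3 alone, 44.7% without H3K27me3 within 5 kb, 12.5% with the pileup at the medians and 73.0% without seedling, and was 65.2% to 68.5% without single libraries. The share on C was 50.1% to 52.9% without single libraries and 0% with the pileup at the medians, where 1 region is left. All regions of the strongest 10 remained under each of these settings, except that 5 did without H3K27me3 within 5 kb and 1 with the pileup at the medians. Leaving out libraries and using silique H3K27me3 alone only loosen the rule, and all 448 regions remained there. The settings of −log10 q and of pileup at the lowest 5% keep strong peaks. That the strongest 10 remained under these settings therefore follows from the settings. The difference in neighbour rank turned to -0.0774 percentiles within 5 kb, was 4.58 beyond 5 kb, and was 1.77 to 4.21 without single libraries. The difference in nearby H3K27me3 turned to 1.57 percentage points within 20 kb, was -0.959 with lists of equal length, and was -2.36 to -1.90 without single libraries. The cause was not tested. Under the 5 settings of coverage, equal length, −log10 q, merging over 200 bp and pileup at the lowest 5%, 171 of the 448 regions remained in all. Their median lower fold was 8.09, against 4.86 for the others. The −log10 q and pileup settings select strong peaks, and that pileup alone kept 39.1%, so the higher fold follows from the selection. No paired analysis was possible because the labels carry library numbers and no replicate number shared by the groups.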

Other observations

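Of the 448 regions, 395 had no other of them within 50 kb, and there were 22 pairs and 3 groups of 3 within that distance. The same count was not made for other sets of regions, so whether this spacing is particular to the 448 is not known. On sequence 5 the 3 regions from 7372216 to 7422787 had lower silique folds of 7.68 to 9.84, and the nearest H3K4me3 region of the middle one was flower bud-only. On sequence 18 the 3 regions from 39895998 to 39909214 had lower folds of 3.86 to 5.86 within 13217 bp, and the 3 from 51337491 to 51375155 had 3.78 to 6.31. The closest pair lay on sequence 10 from 14577471 to 14580893, with lower folds of 8.41 and 13.2. It was picked after its values were seen. No test was made of this spacing.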
